A study of Bos taurus with 6 samples.

Results

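CTNNAL1 and MLLT4 are cell junction genes, and 17 circular RNAs (circRNAs) of subcutaneous fat were annotated to them, 4 to CTNNAL1 and 13 to MLLT4, of 14274 circRNAs detected in all. They were taken as every circRNA whose gene annotation names either symbol. The pair was picked with its age difference in junction reads already known. Subcutaneous fat came from Qinchuan cattle, 3 calves of 6 months and 3 adults of 24 months. No treatment, genotype or sex is given for either age, and whole tissue was used. The labels number the samples but do not state in so many words that each came from a separate animal, so p-values measure the spread between these 6 samples.

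A circRNA is a closed loop, made when a downstream splice donor is joined backwards to an upstream splice acceptor. Reads across that back-splice junction count the circle, and the deposited table also gives non-junction reads at the same locus. CTNNAL1 codes for alpha-catulin, a relative of alpha-catenin and vinculin that also binds dystrobrevin. MLLT4, now also called AFDN, codes for afadin, the scaffold that ties nectins at adherens junctions to actin and binds the small GTPases Ras and Rap. Adherens junctions hold neighbouring cells together through cadherins and nectins, and in fat tissue the vessel walls are rich in them.

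The 6 libraries held 237621 junction reads, from 35616 to 39573 per calf and from 37946 to 47298 per adult. Counts are given as CPM, the junction reads of a circle scaled to the library total, and 3 reads correspond to 63.4 to 84.2 CPM depending on the library. The smallest nonzero count in the table was 2, so a circle listed at 0 may have had a single read. Of all circRNAs, 8454 (59.2%) were read in 1 library only and 1192 (8.35%) in all 6. Wilson intervals of shares and floors cover counting error only.

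The circles of CTNNAL1 all lay between exons 2 and 9, at chromosome 8, 100245384 to 100268384 on the minus strand. Coordinates are as the authors' files give them, and the genome build behind them is not given in the sources used. Exon numbers are the authors' for listed exons. Unlisted exons, such as CTNNAL1 exon 4 and MLLT4 exon 6, were numbered by counting from listed neighbours. The dominant circle, novel_circ_0012633, ran from exon 3 to exon 6 (100255322 to 100261041). It spanned 5719 bases, of which 569 remained after the listed introns were taken away. The other 3 used neighbouring sites. Novel_circ_0012634 (100255322 to 100268384) reached from exon 2 to exon 6, novel_circ_0012632 (100245384 to 100261041) from exon 3 to exon 9, and novel_circ_0012631 (100245384 to 100259140) from exon 4 to exon 9. A single pair of splice sites thus carried most of the reads of this gene. The exon 6 donor was used by 90 of 95 junction reads (94.7%), and the exon 3 acceptor by 92.6% of them.

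The circles of MLLT4 were spread over 62006 bases of the plus strand of chromosome 9, 103847576 to 103909582. Both circles read in all 6 libraries ended at the same donor, that of exon 7 at position 103866097. Novel_circ_0013250 held exons 5 to 7 (103859164 to 103866097, 438 bases without introns). Novel_circ_0013252 held exons 6 and 7 (103864541 to 103866097, 280 bases without introns) and so lay wholly inside the span of the longer one. The exon 7 donor was used by 4 circles and by 144 of 171 junction reads (84.2%). On the acceptor side the reads were divided, with 44.4% at exon 5 and 36.3% at exon 6. The remaining reads came from circles that began at exon 1, 3, 4, 9, 17 or 19. With 13 circles MLLT4 was among the 49 host genes (1.04% of 4700) that gave 13 or more, where the median host gene gave 2.

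**Figure D1:**
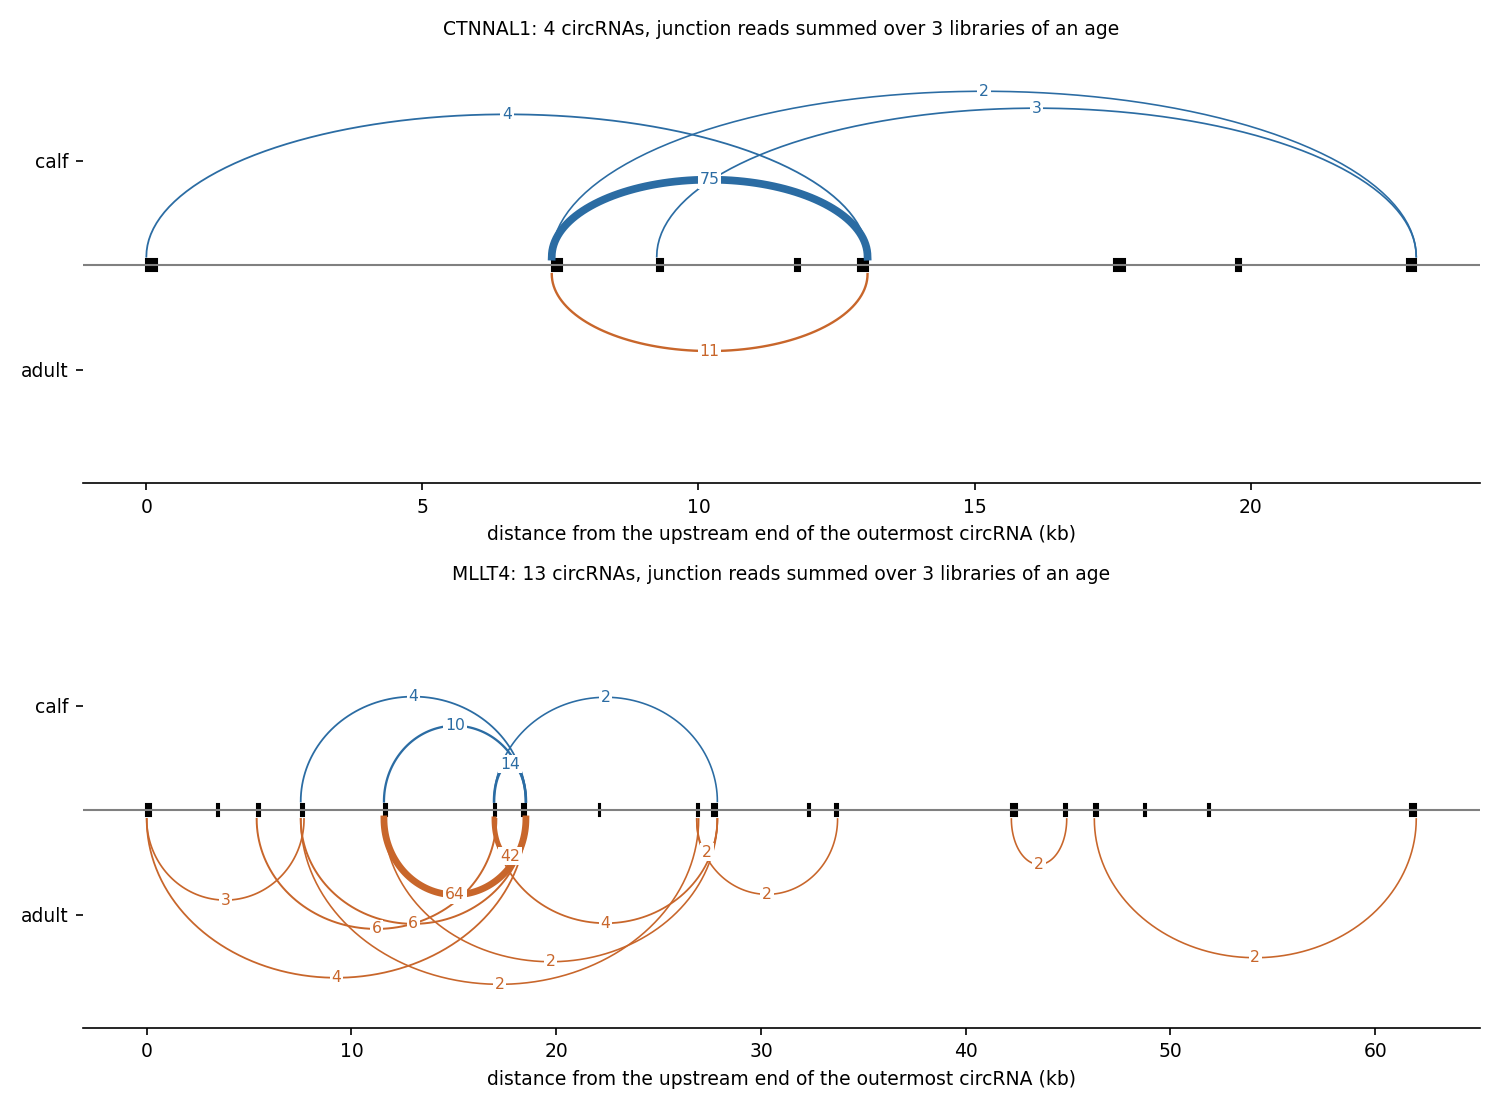
Back-splice junctions of CTNNAL1 and MLLT4 drawn over their exons, with the distance in kb from the upstream end of the outermost circle on the horizontal axis, black boxes for exons that lie within a circle, blue arcs above the line for calf reads and orange arcs below it for adult reads. The number on an arc is its junction reads summed over the 3 libraries of that age. The 4 circles of MLLT4 that end at the exon 7 donor hold 144 of its 171 junction reads.

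CTNNAL1 circles were more abundant in calves. Summed over its 4 circles, there were 30, 25 and 29 junction reads in calves 1 to 3, against 3, 4 and 4 in adults 1 to 3. The mean level was 751 ± 103 CPM in calves, against 87.9 ± 10.9 CPM in adults (SD, n = 3 each). Every adult library lay below the lowest calf library, and the ages likewise did not overlap, in either direction, for 33.5% of the 719 host genes tested. The log2 change in junction reads of the gene, adult minus calf, was -2.98 ± 0.41 (SE). In this count test 12.4% of 719 host genes were called, 6.54% as lower and 5.84% as higher in adults. Because the pair was chosen on this contrast, the change is a description and no p-value is given for it.

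Nearly all of the CTNNAL1 reads came from the exon 3 to 6 circle. Novel_circ_0012633 had 26, 25 and 24 junction reads in calves and 3, 4 and 4 in adults, or 668 ± 33.8 and 87.9 ± 10.9 CPM (SD, n = 3 each). The ages did not overlap, and the calf libraries were within 2 reads of each other. Its log2 change was -2.80 ± 0.39 (SE), in a test that called 19.0% of 663 circRNAs, 10.4% as lower and 8.60% as higher. It was also the sole circle of either gene in the authors' deposited table of age differences, with authors' means of 3.49 in adults and 25.2 in calves and a log2 fold change of -2.77. That table listed 48 circRNAs as lower and 33 as higher in adults. The other 3 CTNNAL1 circles had 9 reads in total, all in calves and at most 3 in any library. Both ages of these circles were at or under the floor of 3 reads, so no fold is given.

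MLLT4 circles went the other way. Summed over all 13 circles, there were 8, 13 and 9 junction reads in calves and 58, 41 and 42 in adults, which was 265 ± 57.8 and 1149 ± 342 CPM (SD, n = 3 each). All 3 adults lay above all 3 calves, and adult 1 was the highest. This lack of overlap is read beside the same 33.5% of host genes. The log2 change of the gene was 2.15 ± 0.34 (SE). For either gene, bulk tissue cannot tell a change in the number of cells that make its circles from a change in circRNA per cell.

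The exon 5 to 7 circle of MLLT4 had the larger estimated change of the pair that was read throughout. Novel_circ_0013250 had 5, 3 and 2 junction reads in calves and 27, 23 and 14 in adults, or 88.8 ± 40.7 and 516 ± 182 CPM (SD, n = 3 each). The ages did not overlap, although the adults ranged widely, from 350 to 712 CPM. Its log2 change was 2.57 ± 0.51 (SE). The exon 6 to 7 circle, novel_circ_0013252, had 3, 6 and 5 reads in calves and 15, 11 and 16 in adults. These were 124 ± 38.2 and 343 ± 95.4 CPM (SD, n = 3 each), again without overlap. It did not pass the low-count filter. Without that filter its log2 change was 1.48 ± 0.66 (SE), and it was not called. In the same unfiltered fit the exon 5 to 7 circle had 2.54 ± 0.62 (SE). Whether the circles differ in their change was not tested. Among the 663 circRNAs that passed the filter, novel_circ_0012633 and novel_circ_0013250 included, 39.4% had ages that did not overlap. That share does not cover novel_circ_0013252, which was outside the set.

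**Figure D2:**
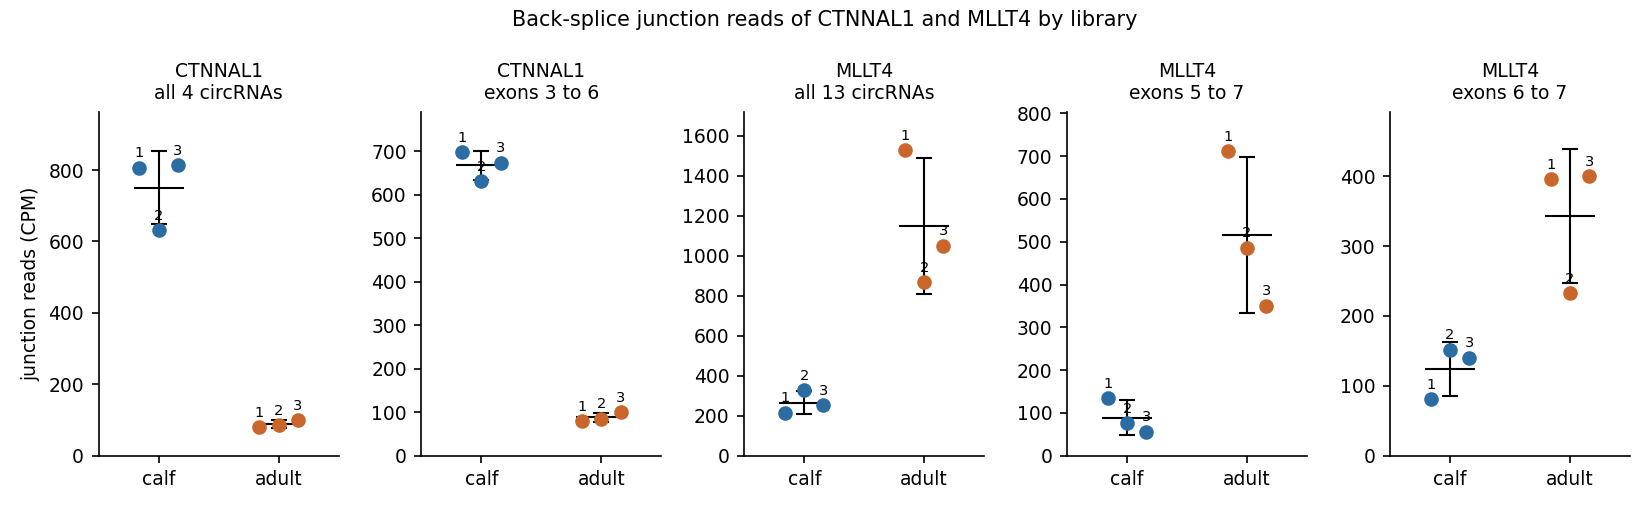
Junction reads scaled to the library total (CPM, linear axis from 0, with its own scale in each panel) of the 2 genes and their 3 abundant circles, with each point a library marked by its number, a horizontal line at the mean and error bars of 1 SD over 3 libraries. The CTNNAL1 panels are higher in the 3 calves and the MLLT4 panels in the 3 adults, and in no panel do the ages overlap.

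The split between the abundant MLLT4 circles that share the exon 7 donor is described here and was not tested between the ages. The longer circle gave 10 of 24 reads of the pair in calves (41.7%, 95% Wilson interval 24.5 to 61.2%) and 64 of 106 in adults (60.4%, 50.9 to 69.2%). The intervals, on reads pooled over libraries, overlap, which is not a test of a difference. Single libraries ran from 28.6% to 62.5% in calves and from 46.7% to 67.6% in adults. Over the whole gene, the exon 7 donor held 28 of 30 calf reads (93.3%, 78.7 to 98.2%) and 116 of 141 adult reads (82.3%, 75.1 to 87.7%). At CTNNAL1, the exon 6 donor held 79 of 84 calf reads (94.0%, 86.8 to 97.4%) and 11 of 11 adult reads (74.1 to 100%). For both genes the intervals of the ages overlapped, and a change in donor use was not tested.

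The other 11 MLLT4 circles had 41 reads between them, 35 in adults and 6 in calves, and none exceeded 4 reads in any library. Novel_circ_0013248 (exons 4 to 7) had 4 reads in calf 2 and 3 each in adults 2 and 3. Novel_circ_0013253 (exons 6 to 10) had 2 reads each in calf 3, adult 1 and adult 3. A further 9 circles were listed in adults and in 0 calf libraries, and 0 circles were listed in calves alone. The number of MLLT4 circles per library was 2, 3 and 3 in calves and 10, 5 and 6 in adults. Adult 1 alone supplied 5 circles that no other library listed, each with 2 reads. More circles were thus listed where the gene had more reads, and at 2 to 4 reads each their absence from calves was not distinguishable from low depth. Without introns, MLLT4 circles were 280 to 1075 bases long and CTNNAL1 circles 569 to 1016.

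Non-junction reads, which are not the readout on which the pair was picked, gave a second measure at the same loci. How they were defined is not given, so some may come from the circles themselves. Whether they are independent of the junction reads is therefore not known. At the CTNNAL1 exon 3 to 6 circle there were 181, 159 and 332 such reads in calves and 31, 64 and 42 in adults. Scaled between libraries, these were 247 ± 142 and 44.2 ± 6.08 (SD, n = 3 each), with no overlap between the ages, as for 23.0% of the circRNAs tested. The log2 change was -2.48 ± 0.41 (SE, 95% interval -3.41 to -1.55, edgeR adjusted p = 0.0199). CTNNAL1 was thus called lower in adults by a test that called 2.23% of 1074 circRNAs in either direction, 1.40% as lower and 0.838% as higher. Calf 3 was the highest, and without it the log2 change was -1.90. The call was lost without adult 1 (edgeR adjusted p = 0.0702), adult 2 (0.135) or adult 3 (0.0564), and over all alternatives the adjusted p ran from 1.34e-06 to 0.135.

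Non-junction reads at MLLT4 did not pass the test. At novel_circ_0013250 there were 204, 111 and 217 reads in calves and 116, 281 and 429 in adults, scaled to 189 ± 75.5 and 256 ± 108 (SD, n = 3 each). The ages overlapped, and the log2 change was 0.44 ± 0.37 (SE, 95% interval -0.40 to 1.29, edgeR adjusted p = 0.620). At novel_circ_0013252 there were 44, 28 and 52 reads in calves and 39, 75 and 118 in adults, scaled to 44.3 ± 17.9 and 73.5 ± 26.9 (SD, n = 3 each). The log2 change there was 0.74 ± 0.38 (SE, 95% interval -0.12 to 1.61, edgeR adjusted p = 0.386). These intervals still allow a rise of more than 1 on the log2 scale. Since the shorter circle lies inside the longer, the values may share reads and are not taken as separate measurements.

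**Figure D3:**
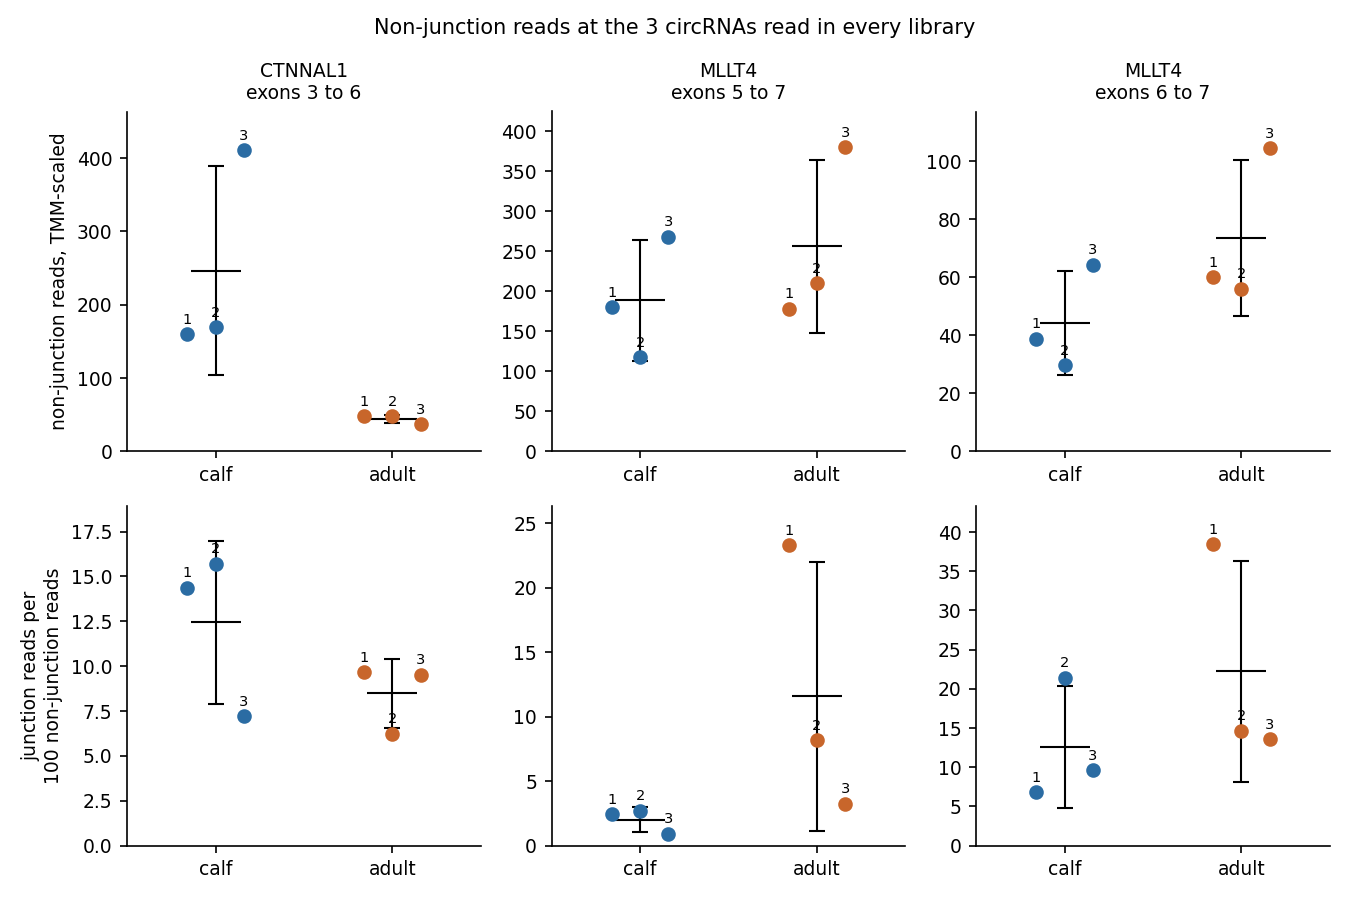
Scaled non-junction reads (top) and junction reads per 100 non-junction reads (bottom) at the 3 circles read in all 6 libraries, on linear axes from 0 with their own scale in each panel, with each point a library marked by its number, a horizontal line at the mean and error bars of 1 SD over 3 libraries. In the top panels the ages are apart at the CTNNAL1 circle and overlap at both MLLT4 circles. In the bottom panels they overlap at the CTNNAL1 circle and novel_circ_0013252. At novel_circ_0013250 the highest calf lies just under the lowest adult. The share of all circRNAs with ages apart in this ratio was not counted, and the ratio uses the junction reads that led to the choice.

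The junction reads per 100 non-junction reads put both readouts side by side. For the CTNNAL1 circle the values were 14.4, 15.7 and 7.23 in calves and 9.68, 6.25 and 9.52 in adults. These overlapped, both kinds of read being lower in adults. For novel_circ_0013250 they were 2.45, 2.70 and 0.922 in calves and 23.3, 8.19 and 3.26 in adults. There the highest calf (2.70) lay just under the lowest adult (3.26). How many of all circRNAs have ages apart in this ratio was not counted. For novel_circ_0013252 they were 6.82, 21.4 and 9.62 in calves and 38.5, 14.7 and 13.6 in adults, with overlap. The log2 changes of the ratio were -0.45 ± 0.53, 1.94 ± 0.62 and 0.62 ± 0.52 (SE) in that order, after each library was centred. The ratio uses the junction reads that led to the choice of the genes, so these are descriptions. Its test called 1 of 1070 circRNAs (0.0935%), which was none of these circles. Whether these libraries were treated with RNase R, which digests linear RNA, is not certain from the labels, so how far non-junction reads stand for linear transcripts is not known.

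Of the other adherens junction genes that could be tested, 0 of 5 were called by edgeR, beside 12.4% of all host genes, and likewise 0 by DESeq2 and by limma-voom, with 1 (IQGAP1) at an unadjusted p under 0.05. The list held 40 genes of cadherins, nectins, catenins and their partners, of which 20 had circRNA reads and 7 could be tested on host gene sums. The other 2 testable genes were CTNNAL1 and MLLT4 themselves, which are on the list by choice. Without them the median log2 change was 0.26, beside 0.01 over all host genes tested. Of the 20 genes with reads, CTNNAL1 and MLLT4 included, 15 were higher in mean in adults and 5 lower. The list sum, also with CTNNAL1 and MLLT4, was 2729 to 3224 CPM in calves and 3578 to 4665 CPM in adults. These sums were not tested. CTNNA1, which codes for the alpha-catenin that couples cadherins to actin, had 24, 14 and 25 reads in calves and 20, 34 and 22 in adults. Its log2 change was 0.16 ± 0.35 (SE), and its sign turned without calf 2. PVRL3, which codes for nectin-3, a ligand of afadin, had 7, 10 and 12 reads in calves and 9, 12 and 14 in adults, a log2 change of 0.18 ± 0.48 (SE) that turned without calf 1. IQGAP1, an actin scaffold, had a log2 change of 1.09 ± 0.48 (SE) and CDH23, a cadherin, one of 0.61 ± 0.42 (SE). PTPRM, a receptor phosphatase found at cell contacts, had a log2 change of 0.26 ± 0.58 (SE), which turned without calf 3 or without adult 2.

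Tight junction and desmosome genes gave few testable circles. Of 38 tight junction and polarity genes 13 had reads, 2 could be tested and 0 were called by edgeR, DESeq2 or limma-voom, with 0 at an unadjusted p under 0.05. In mean, 10 of the 13 were higher in adults and 3 lower. The list sums overlapped, at 1320 to 1693 CPM in calves and 1502 to 2102 CPM in adults. JAM2, a junctional adhesion molecule, had a log2 change of -0.42 ± 0.53 (SE) and DLG1, a polarity scaffold, one of -0.45 ± 0.47 (SE). Of 15 desmosome and gap junction genes 4 had reads, between 2 and 6 per library in all, and 0 could be tested.

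On a list of genes of Ras and Rap signalling, circles of 1 gene, RAPH1, were called lower in adults. RAPH1, or lamellipodin, carries Ras and Rap signals to actin. It had 31, 24 and 34 reads in calves and 9, 8 and 6 in adults, with no overlap, as for 33.5% of host genes. The log2 change of RAPH1 was -2.02 ± 0.37 (SE, edgeR adjusted p = 0.00379), opposite in direction to MLLT4. RAPGEF1, an activator of Rap, had 53, 55 and 66 reads in calves and 50, 62 and 48 in adults, a log2 change of -0.22 ± 0.24 (SE) that did not pass. These were the 2 testable genes of the 30 on the Ras and Rap list, 13 of which had reads. The 1 call of 2 stands beside 12.4% of all host genes called, 6.54% as lower, and is too few to describe the list.

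**Figure D4:**
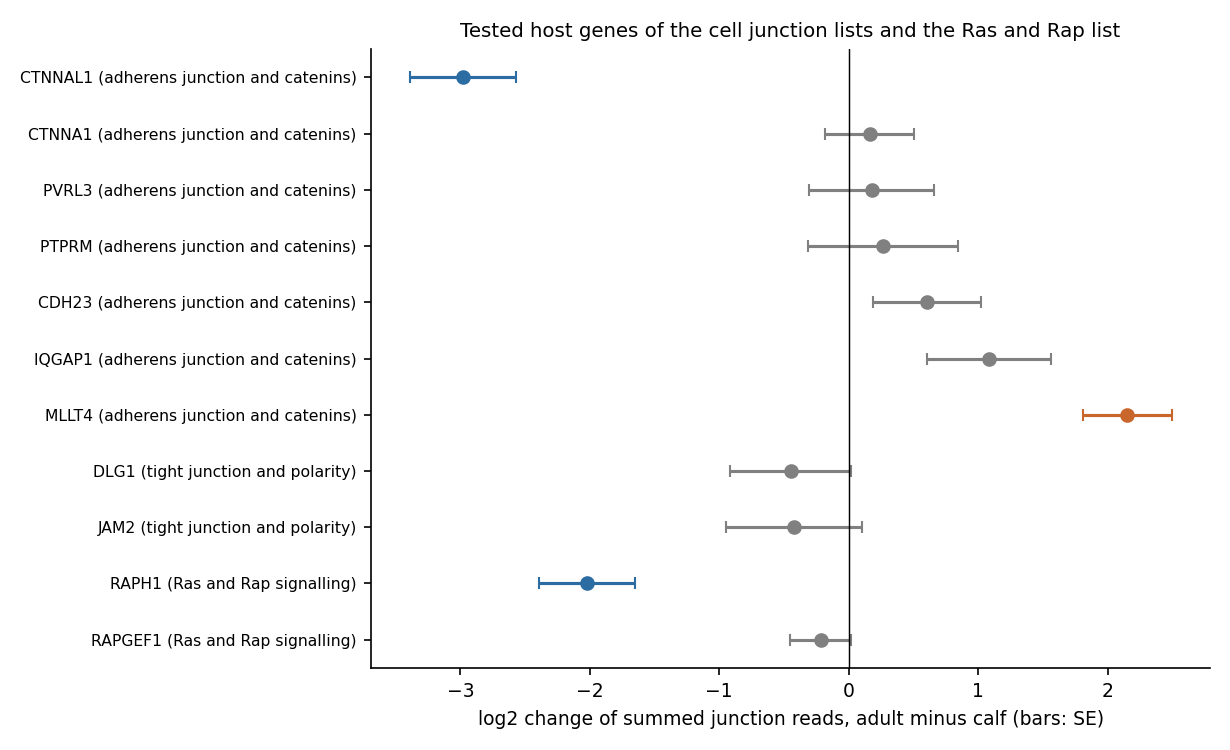
Log2 change in junction reads per host gene, adult minus calf, with its SE, for every tested gene of the junction lists and the Ras and Rap list, with genes past the threshold in blue (lower) or orange (higher) and the others in grey. Among the genes past the threshold, CTNNAL1 and RAPH1 lie below 0 and MLLT4 above it. CTNNAL1 and MLLT4 were picked on this contrast, so their place past the threshold is a description.

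The host genes whose profile over the 6 libraries was nearest to that of each gene were found by the root mean square difference of centred log2 values. Nearest to CTNNAL1 were PANK3, a kinase of coenzyme A synthesis (0.396), APC, a regulator of beta-catenin (0.446), RAPH1 (0.481), the fatty acid synthesis enzyme ACACA (0.489) and TBC1D4, a regulator of glucose transporter traffic (0.544). The median over the other tested host genes was 1.44. PANK3 had 58, 44 and 57 reads in calves and 13, 15 and 9 in adults. Nearest to MLLT4 were the Hippo kinase gene STK3 (0.239), the RNA-binding protein gene SAMD4A (0.318), RDX, which codes for the actin linker radixin (0.328), the septin gene CDC10 (0.372) and ENSBTAG00000037383 (0.395), beside a median of 1.15. STK3 had 29, 43 and 43 reads in calves and 152, 117 and 135 in adults. RDX had 7, 6 and 7 reads in calves and 32, 27 and 20 in adults. These distances are a description over 6 libraries. The pair was picked for its age difference in these same junction reads. Its nearest profiles therefore share that difference by construction, and the gap to the median distance is no separate result.

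**Figure D5:**
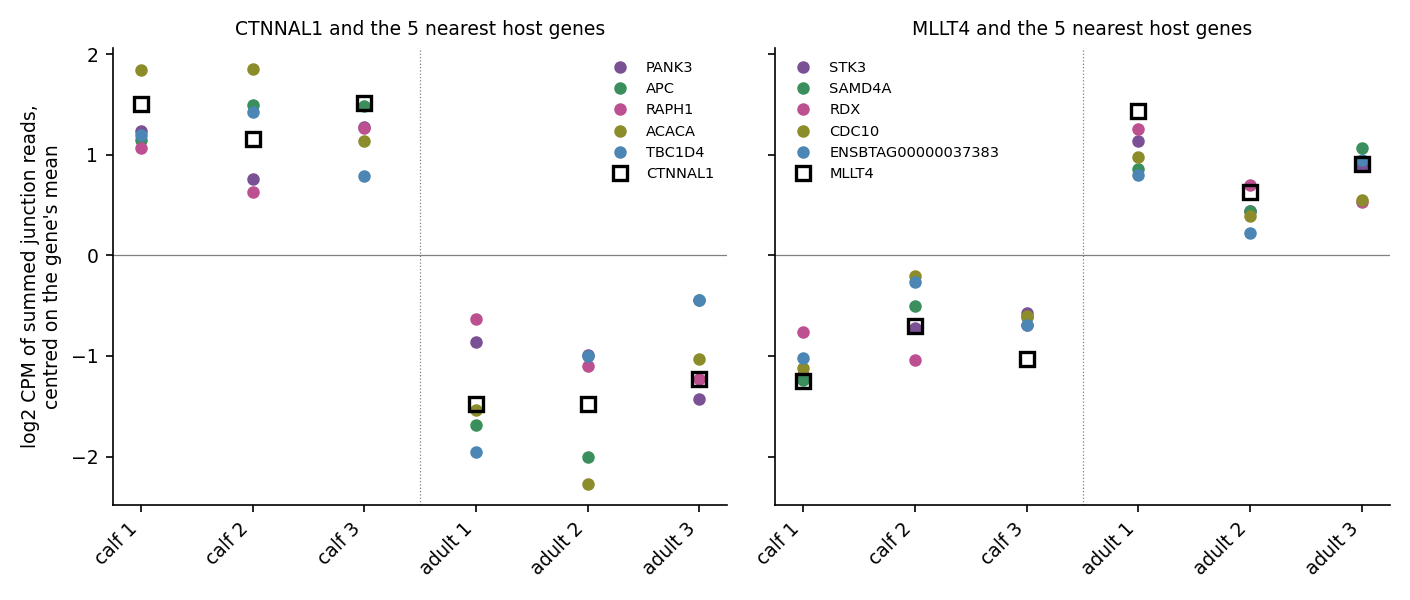
Centred log2 junction-read profiles over the 6 libraries of CTNNAL1 and MLLT4, each (open black squares) drawn with the 5 tested host genes nearest to it (coloured points). The CTNNAL1 set is above its mean in the 3 calves and the MLLT4 set in the 3 adults, which follows from how the genes were picked.

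Circles of genes that mark cell types were counted beside these results. Adipocyte markers had circRNA reads for 7 of 15 genes, with a summed level of 3574 to 4633 CPM in calves and 2537 to 3373 CPM in adults. The sum was lower in adults, as for CTNNAL1, but the genes were mixed, with 4 lower and 3 higher in mean. Circles of ACACA fell, with a log2 change of -3.44 ± 0.46 (SE, edgeR adjusted p = 0.00150). Those of PPARG, which drives fat cell differentiation, fell by 1.17 ± 0.32 on the log2 scale (SE, edgeR adjusted p = 0.0278), a call lost without calf 3 (adjusted p = 0.0905) or any 1 adult (0.0551 to 0.0760). Those of CD36, a fatty acid transporter and the most read of these markers, had a log2 change of 0.87 ± 0.27 (SE, edgeR adjusted p = 0.0535), which passed without calf 3 (0.0379) or adult 2 (0.0441). Circles of PLIN1, LEP, FABP4, CIDEC, LIPE, PNPLA2, FASN and SCD were listed at 0. ACACA, one of the genes nearest to CTNNAL1, is among these markers. Endothelial markers had reads for 9 of 11 genes, with 1292 to 1478 CPM in calves and 1776 to 2114 CPM in adults, and circles of CDH5 and TIE1 were at 0. This sum was higher in adults, as for MLLT4, with 5 genes higher and 4 lower in mean. Of the 2 that could be tested 0 were called by edgeR, DESeq2 or limma-voom, with 0 at an unadjusted p under 0.05. FLT1, a receptor for vessel growth factors and the most read, had a log2 change of -0.46 ± 0.33 (SE) and the endothelial receptor ENG one of 0.75 ± 0.48 (SE). Epithelial markers had reads for 0 of 8 genes. Skeletal muscle markers had 297 reads in adult 2 and 0 to 3 in each other library. Immune markers had reads for 2 of 8 genes and at most 3 reads in a library, and nerve markers for 2 of 8 genes, with 6 reads in calf 2 and 0 elsewhere. Without adult 2 the log2 changes at host gene level were -2.94 for CTNNAL1 and 2.35 for MLLT4. CircRNA reads are not mRNA levels, and the part of fat cell or vessel cell content in the results was not tested.

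The authors' deposited gene ontology table named CTNNAL1 in 42 terms, with a smallest corrected p of 1, and MLLT4 in 0 terms. Of its 58 listed host genes, 1 was under cadherin binding.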

How the data were processed

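CircRNAs were measured in 6 libraries of subcutaneous fat, in 2 ages. Per the labels' protocols, libraries were depleted of ribosomal RNA, kept the first cDNA strand and were read as pairs, and an RNase R step is mentioned. Tools listed in the submitters' processing notes are TopHat2 2.0.14, Trim Galore, Cufflinks and TopHat. The sources used here do not name the circRNA caller or the genome build, nor how a non-junction read was defined.

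Junction and non-junction reads are whole-number counts for each circRNA and library, per the file headers. A column headed TPM was deposited by the authors and holds CPM (recomputed CPM gave the same values, to a relative difference of 4.8e-15). The authors' deposited table of age differences holds group means of scaled reads (a normalised signal), a log2 fold change and a p-value, and their deposited term tables hold p-values. All columns of per-sample values were assigned, leaving 0 unassigned.

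Exons were rebuilt from the gaps between listed introns, and unlisted exons were numbered from their listed neighbours. The deposited spliced length keeps introns, and the file lists no exon or intron under 150 bases, so lengths without introns may keep a short intron. Counts of adults and calves were tested in edgeR 4.0.16 (R 4.3.3) by quasi-likelihood, with TMM scaling, filterByExpr and Benjamini-Hochberg adjustment at 0.05. The filter left 663 circRNAs with 57.9% of junction reads. Host gene sums left out 142 circRNAs of several genes and 1982 of no gene. Non-junction reads were tested at circRNAs read in all 6 libraries. A single entry held 2.28% to 70.1% of a library's non-junction reads, which is why they were scaled by TMM. The ratio was tested with limma 3.58.1 on log2 values (pseudocount 0.5, 10 or more non-junction reads on average). Scripts were tested on simulated data.

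The genes, the 5 pathway lists (1 of them not reported here) and the 6 marker lists were chosen with earlier results of these data known. Named were the members' circles that were tested or read in 3 or more libraries, of each list up to 6 genes that passed and the 3 with most reads, and the 5 nearest profiles. Other circles of the 2 genes and PVRL3, IQGAP1, CDH23, PTPRM, PPARG, CD36, FLT1 and ENG were named after their values were seen. Alternatives were other scaling, DESeq2 1.42.0, other filters, each library left out and the replicate number as a block. A further 7 were added after seeing the data, namely limma-voom, leaving out replicate 3 of both ages, and scaling by totals. No gene sequences are printed.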

Additional observations from a re-analysis of the deposited data

How the results depend on the processing

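For the 2 genes and their circles, 112 of 119 alternatives kept direction and side of the threshold, 7 lost the call and 0 turned the direction. Many of these alternatives use the junction reads on which the pair was chosen, directly or in the ratio, so their kept direction is no support. The ratio and the MLLT4 non-junction reads had no call to lose. Lost calls in junction reads were novel_circ_0012633 (-2.69), novel_circ_0013250 (2.46) and the CTNNAL1 sum (-2.86) with limma-voom, an alternative chosen after seeing the data, and novel_circ_0013250 when adult 1 was left out, with leave-one-out values of 2.30 to 2.96. For non-junction reads of novel_circ_0012633 the leave-one-out values were -2.72 to -1.90, and each adult left out ended the call. Without replicate 3 of both ages, added after seeing the data, its log2 change was -1.78. Of 283 alternatives for the other named host genes 4 turned the sign of a change that had not passed, namely PVRL3 without calf 1, CTNNA1 without calf 2, and PTPRM without calf 3 (-0.07) or adult 2. Their leave-one-out values were -0.041 to 0.39 for PVRL3, -0.11 to 0.33 for CTNNA1 and -0.20 to 0.67 for PTPRM. The nearest-profile genes RDX and CDC10 also lost their call without 1 calf, and ACACA and RDX with limma-voom. The causes were not tested.

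Counts of calls moved past a set fold limit in 25 of 48 alternatives. Single values were judged by sign and side of the threshold, so these shares are not compared. With 1 ratio call in the main fit, any other number of ratio calls counted as moved. For circRNA junction reads 126 calls became 202 without the filter and 71 to 138 with 1 library left out. For host genes 89 became 55 to 123 with 1 library left out. For non-junction reads 24 became 62 with DESeq2, 174 without replicate 3 of both ages and 0 to 74 with 1 library left out, where edgeR without adult 2 gave 0 calls and 125 circRNAs at an unadjusted p under 0.05. For the ratio 1 call became 2 with a pseudocount of 1, 0 without centring, 0 without a minimum of non-junction reads and 0 to 28 with 1 library left out. Where limma gave 0 calls on the ratio, 100 to 155 circRNAs had an unadjusted p under 0.05.

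Calves and adults share replicate numbers, but same-numbered libraries did not consistently deviate together. Their correlations were -0.05, 0.07 and 0.02 in circRNA junction reads. They were -0.02, 0.09 and 0.13 in host gene sums and -0.23, -0.17 and -0.07 in non-junction reads. The numbers are not taken as pairs. With the replicate number as a block, circRNA calls fell to 56 and ratio calls to 0 (137 at an unadjusted p under 0.05). Host gene calls rose to 101, non-junction calls fell to 18, and no call at either gene changed. The log2 changes under this replicate block were -2.80 and 2.59 for novel_circ_0012633 and novel_circ_0013250, -2.98 and 2.13 for the CTNNAL1 and MLLT4 sums, and -2.34, 0.44 and 0.74 for non-junction reads of the 3 circles.

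Depth limits the minor circles most, since 14 of the 17 had at most 4 reads in every library.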
